A study of Rattus norvegicus with 23 samples.

Results

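Interferon-stimulated genes are genes whose transcription is switched on when interferon binds its receptor. A list of 44 such genes, chosen by name, was described here in rat heart and kidney. Each of the 44 symbols matched 1 gene of the 32552 in the count files, and all 44 reached a mean of at least 0.5 CPM (counts scaled to a common library size) in either organ, 43 of them in heart and 44 in kidney. The low-count filter of the fits kept 42 in heart, leaving out Zbp1 and Tap2, and 44 in kidney.

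The rats were Sprague-Dawley animals aged 13 weeks, and all tissue was taken 4 weeks after surgery. The Sham group had sham surgery, the NX group had a 5/6th partial nephrectomy, and the AVF+NX group had the same nephrectomy together with a fistula joining the jugular vein end-to-side to the carotid artery. Polyadenylated RNA was sequenced from snap-frozen heart (3 Sham, 4 NX and 4 AVF+NX libraries) and kidney (4 of each). No group had the fistula without the nephrectomy, so the fistula's effect could be read only on top of it, and the labels give neither the sex of the rats, nor the part of the organ sampled, nor which of the hearts and kidneys were taken from 1 animal. The labels call the libraries of a group biological replicates.

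Type I and type III interferons act through JAK kinases on a complex that holds STAT2 and IRF9 and binds a DNA element built from repeats of GAAA. Type II interferon acts through an element with the arms TTC and GAA, and IRF1 is among its early targets. The products sense viral nucleic acid, block viral entry, translation and replication, tag proteins with ISG15, and cut and transport peptides for class I antigen presentation. In heart and kidney these genes are transcribed at a low level in the absence of infection, by parenchymal, endothelial and immune cells.

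Total counts ranged from 9069354 to 48079431 per library, and the 3 deepest libraries were AVF+NX hearts, a group that spanned 11889483 to 48079431 against 9894716 to 11866042 in Sham hearts. The labelled organs carried their own markers: 5 cardiomyocyte genes summed to between 47231 and 61291 CPM in hearts and to at most 22.7 CPM in kidneys, and 6 tubule genes summed to between 10318 and 21098 CPM in kidneys and to at most 5.28 CPM in hearts. Levels are CPM scaled within each organ and are not comparable between organs. Changes are log2 fold changes from edgeR's quasi-likelihood fit with their standard errors (SE), and "rose", "fell", "higher" and "lower" mean a Benjamini-Hochberg adjusted p below 0.05 over all genes tested. These are bulk tissues, in which fewer cells of a type and less RNA per cell cannot be told apart.

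The promoters of these genes were searched for the DNA elements named above, and the GAAA pair was common among them. RefSeq promoter windows (build GRCr8, from 250 bases before to 50 bases after the start) were found for 35 of the 44 genes, with Ddx58, Dhx58, Zbp1, Oas2, Mx2, Ifit2, Rtp4, Isg15 and Usp18 missing. A pair of GAAA copies separated by any 2 bases, on either strand (TTTC copies on the other), was present in 23 of the 35 windows (65.7%), against 3.92% of all 33469 windows. The arms TTC and GAA with 3 bases between them (TTCNNNGAA, which reads the same on both strands) were present in 7 of the 35 (20%), among them Irf1, Irf9 and Psmb8, against 8.87% of all. Both motifs were in 5 windows and neither in 10, and the 2 motifs can overlap. A match is a description of the letters and not a mapped binding site. The 4 promoters printed here belong to the genes with the smallest p after AVF+NX in either organ among those holding the GAAA pair. They are printed 5′ to 3′ on the gene's strand, over the 250 bases before the start, with the GAAA pair in capitals.
Psmb10 (chr19:50743293-50743542, minus strand): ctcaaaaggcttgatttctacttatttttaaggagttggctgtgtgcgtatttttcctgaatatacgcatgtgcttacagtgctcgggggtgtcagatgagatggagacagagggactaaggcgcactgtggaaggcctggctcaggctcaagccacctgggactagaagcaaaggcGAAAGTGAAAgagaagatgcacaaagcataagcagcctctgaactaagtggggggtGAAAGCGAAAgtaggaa
Lgals3bp (chr10:104127849-104128098, minus strand): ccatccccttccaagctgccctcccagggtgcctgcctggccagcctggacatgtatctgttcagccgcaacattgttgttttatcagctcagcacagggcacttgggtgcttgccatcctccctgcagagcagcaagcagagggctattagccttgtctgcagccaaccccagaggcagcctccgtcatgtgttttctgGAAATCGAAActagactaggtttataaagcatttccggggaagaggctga
Ifi27 (chr6:128355062-128355311, plus strand): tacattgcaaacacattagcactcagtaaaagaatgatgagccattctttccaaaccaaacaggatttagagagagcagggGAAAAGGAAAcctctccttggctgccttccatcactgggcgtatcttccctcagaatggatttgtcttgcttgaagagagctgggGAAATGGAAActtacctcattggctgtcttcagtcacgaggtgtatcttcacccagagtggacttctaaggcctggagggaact
Tap1 (chr20:4668544-4668793, minus strand): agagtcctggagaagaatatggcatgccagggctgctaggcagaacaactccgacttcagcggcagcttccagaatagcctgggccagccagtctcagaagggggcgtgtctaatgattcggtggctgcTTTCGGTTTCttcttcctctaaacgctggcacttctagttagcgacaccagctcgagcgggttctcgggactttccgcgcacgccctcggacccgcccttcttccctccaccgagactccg
Psmb10 and Ifi27 each held 2 pairs, and Tap1 held its pair as TTTC copies. All 4 genes rose in kidney after AVF+NX, and all 4 had a smaller change in heart, by the test of that difference given further on. The 4 were picked by their p after AVF+NX, so these calls tell nothing of a link between the motif and the change.

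In Sham animals the genes were led by the membrane proteins. Levels here are RPKM, which are CPM divided by the exon length in kilobases, on a scale common to all 23 libraries, since only a length-corrected value compares genes. Ifitm3, which blocks viral entry at endosomes, stood highest in both organs, at 98.8 ± 3.21 (SD, n = 3) RPKM in heart and 48.6 ± 4.62 (SD, n = 4) in kidney. Bst2, the tetherin that holds budding virions to the cell surface, came next at 73.1 ± 9.86 (SD, n = 3) in heart and 26.6 ± 4.07 (SD, n = 4) in kidney. Oas2, an oligoadenylate synthetase, was among the lowest at 0.207 ± 0.185 (SD, n = 3) in heart and 0.156 ± 0.125 (SD, n = 4) in kidney. Between sham heart and sham kidney, 16 of 44 members were higher in heart (33.2% of all genes were) and 3 were lower (37.9% of all genes), on a scale where the median of all genes was −0.11. Usp18, the protease that removes ISG15 from proteins, was higher in heart by a log2 difference of 2.35 ± 0.32 (SE, adjusted p = 5.53e-07), with 5.70 ± 1.55 (SD, n = 3) against 1.11 ± 0.0900 (SD, n = 4) RPKM. Ifit2 (1.57 ± 0.23), Bst2 (1.46 ± 0.22) and Ifi27 (1.38 ± 0.27) were also higher in heart, and Ddx58 (−1.36 ± 0.21), Tap2 (−1.30 ± 0.43) and Herc6 (−1.03 ± 0.35) were lower. Irf7 at 1.12 ± 0.55 (SE, adjusted p = 0.0751), Psmb8 at 0.53 ± 0.39 (SE, adjusted p = 0.222), Isg15 at 0.37 ± 0.34 (SE, adjusted p = 0.344) and Oasl2 at −0.71 ± 0.36 (SE, adjusted p = 0.0854) did not pass the test, nor did Ifih1, Stat2 and Tap1, whose differences were 0.05, 0.07 and 0.26.

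After AVF+NX many interferon-stimulated genes were higher than in Sham in both organs. In kidney 36 of 44 members rose and 0 fell, where 15.9% of all 14322 genes tested rose and 9.18% fell. The median log2 change of the members was 1.17 against −0.01 over all genes, and all 44 had a positive value. In heart 21 of 42 members rose and 2 fell, where 15.4% of all 12794 genes rose and 18.6% fell, with a median of 0.67 against 0.01 over all genes. Of the antiviral effectors 9 of 13 rose in heart and 11 of 13 in kidney, while Psmb8, Psmb9, Psmb10 and Tap1 rose in kidney and had negative values in heart. Called higher in both organs were 16 members: Ifih1, Irf7, Stat2, Oas1a, Oas2, Oasl, Oasl2, Mx1, Ifit2, Rsad2, Usp18, Parp9, Parp14, Dtx3l, Sp100 and Gbp2, which is 16 of the 21 called in heart and 16 of the 36 called in kidney. A further 5 were called in heart alone (Ddx58, Mx2, Cmpk2, Herc6 and Xaf1) and 20 in kidney alone, which does not by itself show a difference between the organs. That difference has its own test further on.

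**Figure D1:**
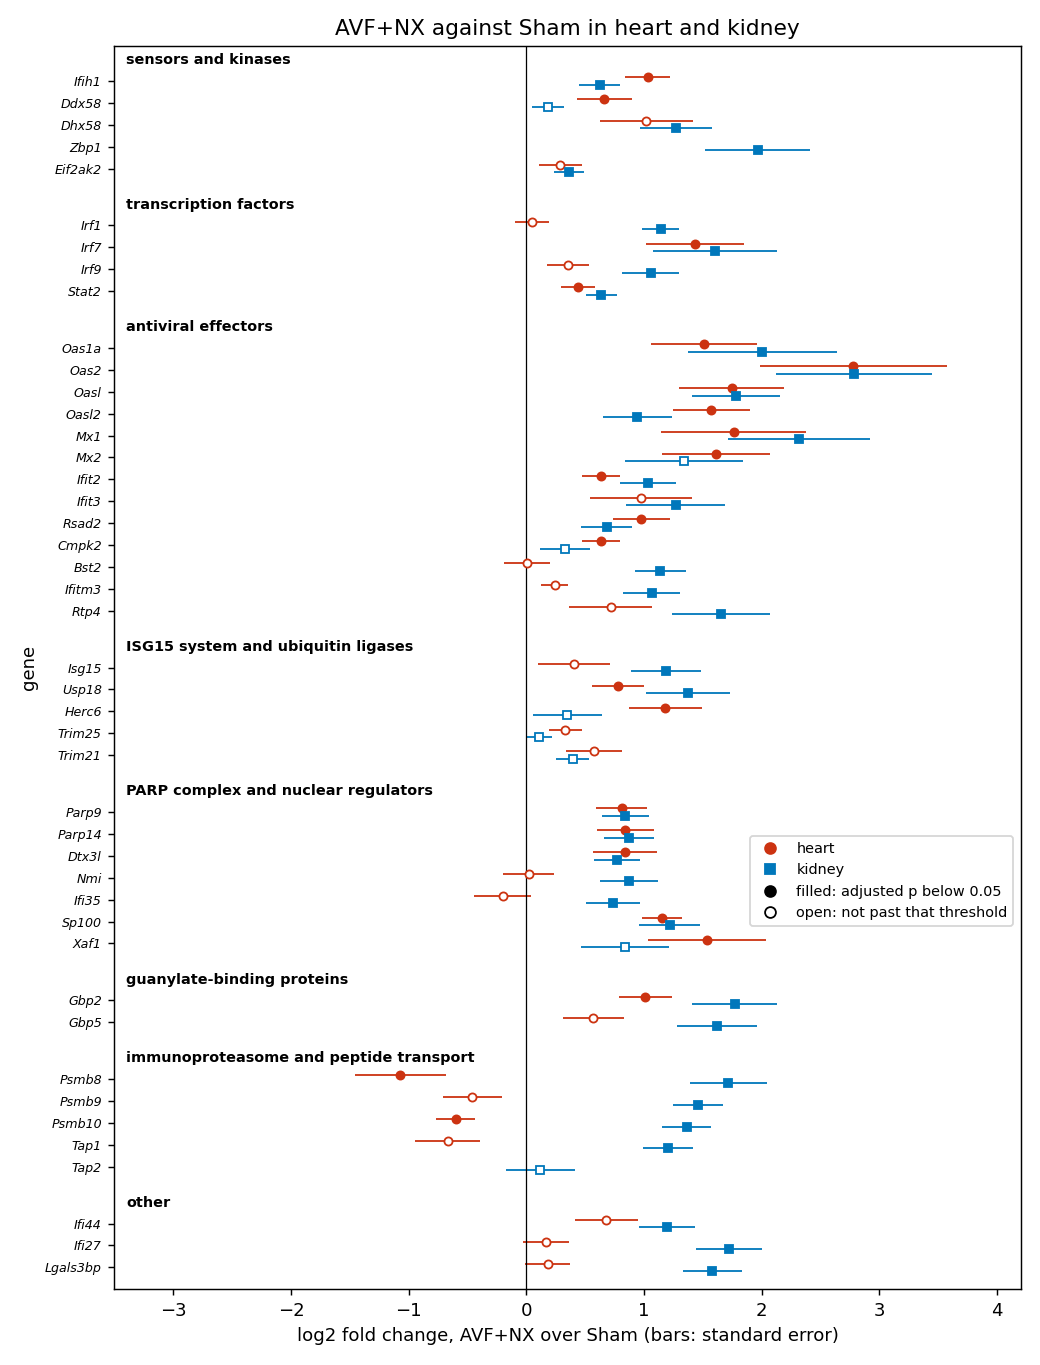
Log2 fold change of AVF+NX over Sham for each gene, by role, in heart (red circles) and kidney (blue squares), with standard errors and filled symbols where the adjusted p was below 0.05. The kidney values are all above 0, and Psmb8, Psmb9, Psmb10, Tap1 and Ifi35 lie below 0 in heart.

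Several measures of the libraries moved with these groups. In heart the AVF+NX libraries were deeper, and their small RNA index (the mean log2 CPM of 63 small structured RNA genes, centred on all hearts) ran from −0.89 to −0.28 against 0.79 to 0.84 in Sham. A clock index (mean log2 CPM of Arntl, Clock and Npas2 minus that of Dbp, Tef, Hlf, Nr1d1, Per3 and Bhlhe41) ran from −1.11 to 2.32 in AVF+NX hearts and from −2.71 to −0.98 in Sham hearts. With the log2 total, the small RNA index or the clock index added to the heart fit, 0 of the 23 calls passed, and 2, 58 and 1 of all genes were called. Counts thinned to the smallest library gave 23 calls, 22 of them the same members. In kidney the total counts of AVF+NX and Sham overlapped, and of the 36 calls 34 passed with the log2 total, 25 with the small RNA index and 7 with the clock index, which ran from −1.51 to 1.53 in AVF+NX and from −2.70 to −0.81 in Sham. Calls over all genes under these kidney settings are not given here, so the members' losses cannot be set against those of other genes. The small RNA index of kidneys ran from −0.18 to 0.41 in AVF+NX and from −0.10 to 0.01 in Sham. In heart the total (narrowly, 11889483 against 11866042) and the small RNA index did not overlap between AVF+NX and Sham, so there they cannot be told apart from the operation. The clock index overlapped in heart only through AVF+NX library 4 (−1.11) and Sham library 1 (−0.98), so there it could hardly be told apart from the operation either. In kidney the clock index overlapped through AVF+NX libraries 3 and 4 (−1.31 and −1.51) and Sham library 1 (−0.81).

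Markers of other cell types moved as well, and their part in the members' changes was not tested. In kidney 10 of 10 macrophage genes, 7 of 8 T and NK cell genes and 5 of 5 B and plasma cell genes rose after AVF+NX. Their summed levels were 314.0 to 401, 31.7 to 42.6 and 0.987 to 3.15 CPM in Sham, and 1118 to 2410, 131.5 to 222 and 155 to 321 CPM in AVF+NX, with Ms4a1 at 0 in every Sham kidney. Jchain, the joining chain of secreted antibodies, rose by 7.26 ± 0.68. Also higher in kidney were 3 of 4 fibroblast genes, with sums of 345 to 531 CPM in Sham and 1621 to 3587 CPM in AVF+NX, and 2 of 2 neutrophil genes, while 1 of 4 endothelial genes rose and 2 fell, and 4 of 6 tubule genes fell. The 2 genes tested of the plasmacytoid dendritic cell list, Irf8 and Tcf4, rose in kidney, and Siglech of that list was tested in neither organ's fit. Tcf4 is not particular to these cells, as it stood at 111 to 117 CPM in Sham hearts without Siglech counts. In heart 2 of 7 T and NK cell genes and 1 of 2 tested genes of the plasmacytoid dendritic cell list (Tcf4, not Irf8) rose. Of the macrophage genes 3 of 10 rose and 1 (C1qa) fell, with sums of 235 to 250.2 CPM in Sham and 331 to 414 CPM in AVF+NX. Endothelial (4 of 4) and fibroblast (4 of 4) genes rose in heart, 0 of 5 cardiomyocyte genes passed the test, and Siglech and Ms4a1 were at 0 in every Sham heart.

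The rise was uneven among the animals. Relative to the Sham mean of the organ, the median member stood 1.12 log2 units higher in AVF+NX heart library 1 and 0.45, 0.37 and 0.53 higher in libraries 2 to 4. In kidney the same median was 1.64 in AVF+NX library 1 and 0.90, 0.57 and 1.01 in the other libraries. Library 1 was the highest of its group in both organs, and the labels do not say whether the heart and the kidney numbered 1 are from the same rat. AVF+NX kidney library 1 was also the highest of its group for the summed macrophage (2410 CPM against 1118 to 1864), T and NK cell (222 CPM), B and plasma cell (321 CPM), plasmacytoid dendritic cell (213.5 CPM against 127 to 137) and fibroblast (3587 CPM) markers, and AVF+NX heart library 1 for macrophage (414 CPM against 331 to 349), T and NK cell (45.8 CPM) and fibroblast (1880 CPM) markers. Of the plasmacytoid dendritic cell sum in that kidney library, 139 CPM was Irf8. Of the T and NK cell sum in that heart library, 35.4 CPM was Cd4. Among the other T and NK cell genes, Cd3e (0.952 CPM) and Nkg7 (1.55 CPM) were the lowest of the group there, and Cd3d (0.212 CPM) and Prf1 (4.41 CPM) the highest. AVF+NX heart library 1 was below another library for plasmacytoid dendritic cell (153.9 CPM against 170.8) and endothelial (722.5 CPM against 780.2) markers. The same held there for B and plasma cell markers (1.269 CPM against 1.603). AVF+NX kidney library 1 was below library 2 for endothelial markers (377.6 CPM against 409.7). AVF+NX kidney library 3 had a larger macrophage sum (1864 CPM) than libraries 2 and 4 (1118 and 1643 CPM), but the lowest member median (0.57). The part of these markers in the members' levels was not tested. Without AVF+NX library 1, 18 members were called in heart and 26 in kidney. Leaving out single libraries gave between 12 and 25 calls in heart and between 26 and 38 in kidney, and 8 of the 23 heart calls and 25 of the 36 kidney calls passed without each library in turn. The 8 heart calls were Ifih1, Oasl, Oasl2, Ifit2, Rsad2, Cmpk2, Sp100 and Gbp2. Of NX kidneys, library 3 stood at −0.23 and the others between 0.46 and 0.60, and its macrophage sum of 374 CPM and its B and plasma cell sum of 6.89 CPM were also the lowest of that group.

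**Figure D2:**
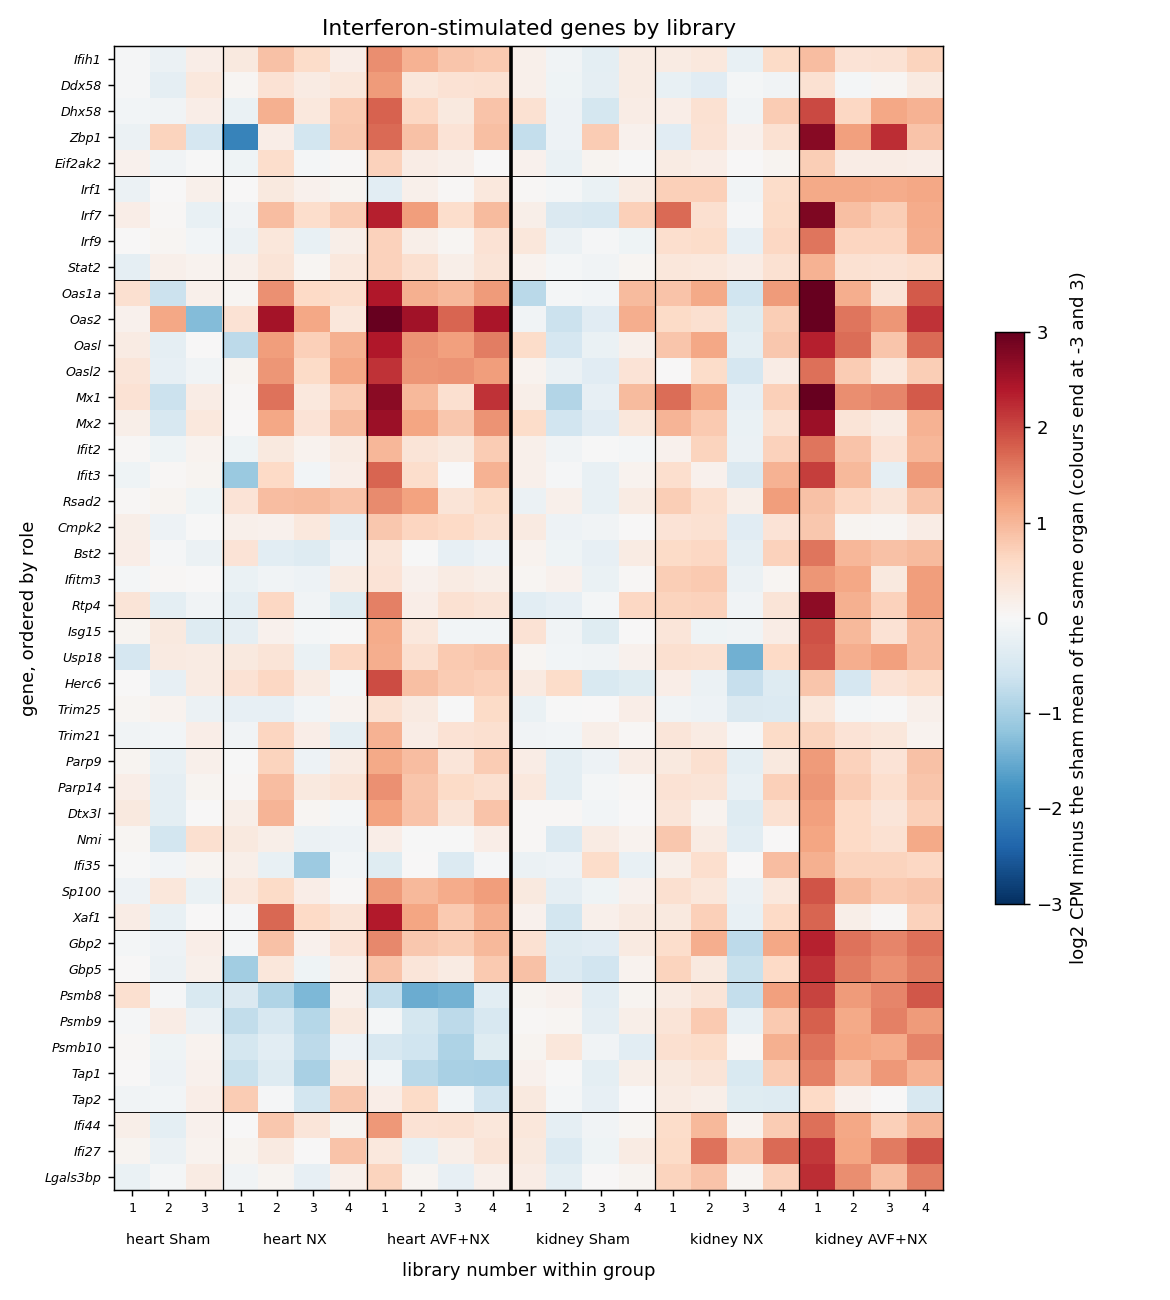
Each row is a gene and each column a library, coloured by log2 CPM minus the mean of the Sham libraries of the same organ, with colours ending at −3 and 3. AVF+NX library 1 is the reddest column in both organs, the rows Psmb8 to Tap1 are blue in most NX and AVF+NX hearts and red in AVF+NX kidneys, and NX kidney library 3 has a median of −0.23.

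Among the sensors, 2 of 4 tested rose in heart and 4 of 5 in kidney. Ifih1 encodes MDA5, the sensor of long double-stranded RNA. Ifih1 stood at 12.1, 10.97 and 14.2 CPM in Sham hearts, 15.1, 22.6, 18.2 and 14.1 in NX hearts and 32.9, 25.5, 22.1 and 21.2 in AVF+NX hearts. Every AVF+NX heart lay above every Sham heart, with a log2 change of 1.03 ± 0.19 (SE, adjusted p = 0.00294). In kidney the values were 21.4, 17.8, 15.7 and 22.8 in Sham, 22.7, 23.9, 16.5 and 28.5 in NX and 36.9, 25.7, 25.9 and 30.8 in AVF+NX, a change of 0.62 ± 0.17 (SE, adjusted p = 0.0203) with no overlap between Sham and AVF+NX, lost without AVF+NX library 1 and without either of 2 Sham libraries. Ddx58 encodes RIG-I, which senses short RNA with a triphosphate end. It rose in heart by 0.66 ± 0.23 (SE, adjusted p = 0.0427), with AVF+NX library 1 at 15.1 CPM and the others at 7.88 to 8.47, and the call was lost without that library and without either of 2 Sham libraries. In kidney its change was 0.19 ± 0.14 (SE, adjusted p = 0.345). Dhx58 (LGP2), which tunes the other sensors, rose in kidney by 1.27 ± 0.31 (SE, adjusted p = 0.00952) and measured 1.02 ± 0.39 (SE, adjusted p = 0.0600) in heart. Zbp1 senses nucleic acids in the Z form and can start necroptosis. Its CPM in kidney was 0.667, 1.07, 2.19 and 1.35 in Sham and 9.07, 3.10, 6.36 and 2.34 in AVF+NX, all above Sham, for a change of 1.97 ± 0.45 (SE, adjusted p = 0.00699). In heart Zbp1 was at most 1.16 CPM and was not tested. Eif2ak2, the kinase PKR that halts translation, rose in kidney by 0.36 ± 0.12 (SE, adjusted p = 0.0474), a call that 6 of the 8 single-library omissions ended, and measured 0.29 ± 0.18 (SE, adjusted p = 0.226) in heart.

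All 4 transcription factors rose in kidney, and 2 of 4 in heart. Irf7, which amplifies the type I interferon response, had CPM of 15.7, 14.1 and 11.8 in Sham hearts and 70.3, 33.0, 19.8 and 26.8 in AVF+NX hearts, so library 1 was far above the rest and the groups did not overlap. Its change was 1.44 ± 0.42 (SE, adjusted p = 0.0233) in heart and 1.605 ± 0.53 (SE, adjusted p = 0.0450) in kidney, where AVF+NX values were 68.8, 18.1, 16.2 and 21.1 against 11.01, 7.16, 6.90 and 16 in Sham. The kidney call was lost without AVF+NX library 1 and without any of 3 Sham libraries, and the heart call without any Sham library, while 3.29% of the exon bases of Irf7 overlap Phrf1 on the other strand. Stat2, a subunit of the type I interferon complex, rose by 0.44 ± 0.14 (SE, adjusted p = 0.0322) in heart and 0.64 ± 0.13 (SE, adjusted p = 0.00361) in kidney, where its CPM went from 39.7, 35.2, 34.2 and 38.6 in Sham to 76.7, 50.9, 49.7 and 52.3 in AVF+NX. The heart call was lost without any of 4 libraries, and the kidney call passed without each library. Irf9, the DNA-binding partner of that complex, rose in kidney by 1.06 ± 0.24 (SE, adjusted p = 0.00735) and measured 0.36 ± 0.18 (SE, adjusted p = 0.134) in heart. Irf1, an early target of type II interferon, had the smallest p of the members in kidney, with 20.6, 19.2, 17.4 and 23.9 CPM in Sham and 44.8, 44.5, 44.0 and 45.5 in AVF+NX. The 4 AVF+NX kidneys lay between 44.0 and 45.5 CPM, above every Sham and NX kidney, for a change of 1.14 ± 0.16 (SE, adjusted p = 0.000307). In heart Irf1 was 17.3, 19.8 and 21.9 in Sham and 15.7, 21.6, 20.1 and 24.4 in AVF+NX, overlapping groups with a change of 0.05 ± 0.14 (SE, adjusted p = 0.802).

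Of 13 antiviral effectors, 9 rose in heart and 11 in kidney. The oligoadenylate synthetases make the messenger that activates RNase L. Oas1a, Oas2, Oasl and Oasl2 belong to this family, whose members do not all carry that activity. Oasl2 went from 4.97, 3.21 and 3.55 CPM in Sham hearts to 17.7, 9.84, 9.99 and 9.27 in AVF+NX hearts, without overlap, for a change of 1.57 ± 0.33 (SE, adjusted p = 0.00485). In kidney the groups overlapped, with 10.9, 8.96, 7.95 and 13.7 in Sham and 32.3, 17.5, 12.6 and 17.1 in AVF+NX and a change of 0.94 ± 0.29 (SE, adjusted p = 0.0322) that was lost without AVF+NX library 1 and without any of 3 Sham libraries. Oas2 had the largest change in both organs, 2.78 ± 0.79 (SE, adjusted p = 0.0196) in heart and 2.78 ± 0.66 (SE, adjusted p = 0.00918) in kidney. Its counts were low, at 0.445, 0.247, 0.349 and 1.26 CPM in Sham kidneys and 9.70, 1.86, 1.51 and 2.85 in AVF+NX kidneys, and library 1 was again the highest. Oasl rose by 1.75 ± 0.44 (SE, adjusted p = 0.0107) in heart and 1.78 ± 0.37 (SE, adjusted p = 0.00459) in kidney, and both calls passed without each library. Oas1a rose by 1.51 ± 0.45 in heart, a call lost without either of 2 Sham libraries, and by 2.01 ± 0.63 in kidney, a call lost without any of 5 libraries.

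Mx1 and Mx2, dynamin-like GTPases that block viral replication, spread widely between animals. Mx1 had CPM of 15.7, 4.68, 3.29 and 10.9 in AVF+NX hearts against 3.18, 1.45 and 2.749 in Sham, and of 69.8, 14.6, 15.3 and 19.97 in AVF+NX kidneys against 6.12, 2.88, 4.54 and 10.6 in Sham. The changes were 1.76 ± 0.62 (SE, adjusted p = 0.0465) in heart and 2.32 ± 0.60 (SE, adjusted p = 0.0165) in kidney, and the call was lost without any of 5 libraries in heart and without either of 2 in kidney. Mx2 rose in heart by 1.61 ± 0.46 (SE, adjusted p = 0.0205) and measured 1.34 ± 0.50 (SE, adjusted p = 0.0720) in kidney, where its groups overlapped. Rsad2 (viperin), which makes a chain-terminating nucleotide, was at 8.47, 8.80 and 7.63 CPM in Sham hearts, 11.04, 15.9, 15.98 and 15.1 in NX hearts and 22.4, 19.4, 10.8 and 12.4 in AVF+NX hearts. It rose after AVF+NX by 0.98 ± 0.24 (SE, adjusted p = 0.00979) in heart and 0.68 ± 0.22 (SE, adjusted p = 0.0343) in kidney, where 6 of the 8 single-library omissions ended the call. Cmpk2, its neighbour on chromosome 6 and a mitochondrial nucleotide kinase, rose in heart by 0.63 ± 0.16 (SE, adjusted p = 0.0108) and measured 0.33 ± 0.21 (SE, adjusted p = 0.285) in kidney. Ifit2, which binds RNA, rose by 0.63 ± 0.16 (SE, adjusted p = 0.0113) in heart and 1.04 ± 0.24 (SE, adjusted p = 0.00795) in kidney.

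A few effectors were called in kidney and not in heart. Bst2 went from 30.0, 25.7, 23.7 and 33.4 CPM in Sham kidneys to 85.8, 56.2, 51.8 and 54.5 in AVF+NX kidneys, a rise of 1.14 ± 0.21 (SE, adjusted p = 0.00253), and in heart it was 55.1, 46.9 and 42.8 in Sham and 62.1, 47.6, 40.7 and 43.4 in AVF+NX, a change of 0.01 ± 0.19 (SE, adjusted p = 0.984). Ifitm3 rose in kidney by 1.07 ± 0.24 (SE, adjusted p = 0.00801) and measured 0.24 ± 0.11 (SE, adjusted p = 0.114) in heart. Ifit3 rose in kidney by 1.27 ± 0.42, a call that 7 of the 8 omissions ended, and Rtp4 by 1.66 ± 0.42. The OAS, MX, IFIT and GBP genes have close relatives in the genome, and how reads shared between copies were counted is not given in the sources used here, so the split among copies is uncertain.

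**Figure D3:**
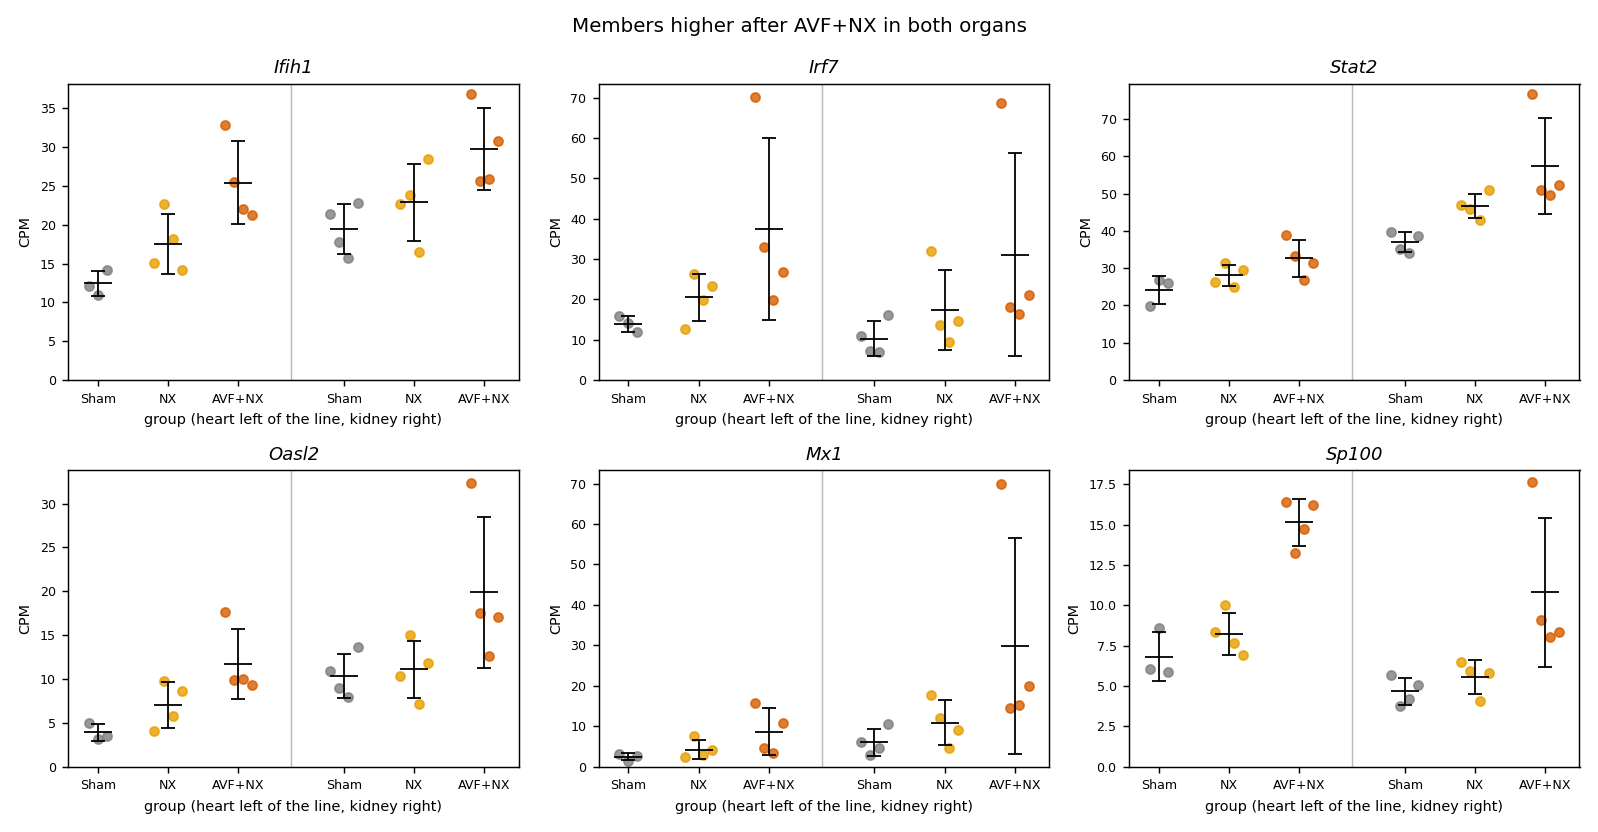
CPM of 6 genes in each library, by group, with heart left of the line and kidney right; points are libraries and black bars the mean and SD. The mean of AVF+NX lies above that of Sham in each panel and organ, Oasl2 overlaps between Sham and AVF+NX in kidney, and library 1 sets the top of the AVF+NX group for Irf7, at 70.3 CPM in heart and 68.8 CPM in kidney, and for Mx1 at 15.7 and 69.8 CPM.

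In the ISG15 system 2 of 5 members rose in each organ. Isg15 encodes the ubiquitin-like modifier itself. It was at 5.01, 3.37, 2.80 and 3.69 CPM in Sham kidneys, 4.74, 3.33, 3.39 and 4.30 in NX and 14.3, 7.35, 4.94 and 7.03 in AVF+NX, a rise of 1.19 ± 0.30 (SE, adjusted p = 0.0124) in which the lowest AVF+NX library lay just under the highest Sham library. In heart it was 3.10, 3.62 and 2.22 in Sham and 6.42, 3.67, 2.746 and 2.76 in AVF+NX, a change of 0.40 ± 0.30 (SE, adjusted p = 0.316). Usp18, which also restrains the type I receptor, rose by 0.78 ± 0.22 (SE, adjusted p = 0.0180) in heart and 1.37 ± 0.36 (SE, adjusted p = 0.0140) in kidney. Herc6, a ligase that joins ISG15 to its targets in mice, rose in heart by 1.18 ± 0.31 (SE, adjusted p = 0.0128), from 5.46, 4.55 and 6.47 CPM in Sham to 21.3, 10.2, 9.27 and 9.001 in AVF+NX. In kidney Herc6 measured 0.35 ± 0.29 (SE, adjusted p = 0.418). Trim25 and Trim21, ubiquitin ligases, passed in neither organ, at 0.33 ± 0.14 and 0.57 ± 0.24 in heart and 0.11 ± 0.11 and 0.39 ± 0.14 in kidney.

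Of the 7 PARP complex and nuclear genes, 5 rose in heart and 6 in kidney. PARP9 and DTX3L form an ADP-ribosylating ubiquitin ligase, and their genes lie head to head on chromosome 11 with 1128 bases between them in the files' coordinates. Parp9 went from 12.7, 10.2 and 13.3 to 26.3, 23, 15.3 and 20.3 CPM in heart and from 27.9, 19.3, 21.4 and 28.1 to 58.2, 38.8, 31.9 and 43.9 CPM in kidney, Sham to AVF+NX, with no overlap in either organ. Its changes were 0.81 ± 0.22 (SE, adjusted p = 0.0139) and 0.84 ± 0.20 (SE, adjusted p = 0.00968). Dtx3l rose by 0.84 ± 0.27 in heart and 0.77 ± 0.20 in kidney, and Parp14, a mono-ADP-ribosyltransferase, by 0.84 ± 0.24 and 0.87 ± 0.21. Sp100 is a structural protein of nuclear bodies that silence foreign DNA. It had the smallest p of the members in heart, with 6.03, 8.59 and 5.85 CPM in Sham, 8.33, 10.02, 7.69 and 6.93 in NX and 16.4, 13.2, 14.7 and 16.2 in AVF+NX. Every AVF+NX heart was above every other heart, for a change over Sham of 1.15 ± 0.17 (SE, adjusted p = 0.00183). In kidney Sp100 rose by 1.22 ± 0.26 (SE, adjusted p = 0.00517). Xaf1, a partner of the apoptosis inhibitor XIAP, rose in heart by 1.54 ± 0.50 and measured 0.84 ± 0.37 (SE, adjusted p = 0.118) in kidney, with library 1 the highest in both, and its heart call was lost without that library and without any Sham library. The heart call of Dtx3l was also lost without any of 4 libraries. Nmi and Ifi35, which bind each other, rose in kidney by 0.87 ± 0.25 and 0.74 ± 0.23 and measured 0.02 ± 0.22 and −0.20 ± 0.24 in heart.

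The guanylate-binding proteins attack the membranes of vacuoles that hold pathogens. Gbp2 went from 13.7, 12.8 and 16.3 CPM in Sham hearts to 38.8, 25, 23.7 and 27.8 in AVF+NX hearts, and from 17.5, 9.62, 10.1 and 15.5 to 63.5, 39.6, 35.2 and 40.2 in kidneys. It rose by 1.01 ± 0.22 (SE, adjusted p = 0.00628) in heart and 1.77 ± 0.36 (SE, adjusted p = 0.00442) in kidney, and both calls passed without each library. Gbp5 rose in kidney by 1.62 ± 0.34 (SE, adjusted p = 0.00469) and measured 0.57 ± 0.26 (SE, adjusted p = 0.104) in heart.

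The immunoproteasome and peptide transport genes differed between the organs. PSMB8, PSMB9 and PSMB10 replace the standard catalytic subunits of the proteasome and favour cuts that suit class I molecules, and TAP1 and TAP2 carry the peptides into the endoplasmic reticulum. In kidney 4 of 5 rose after AVF+NX, and in heart 2 of 4 tested fell. Psmb8 (chromosome 20, 3990613 to 3993769 in the files' coordinates, whose build is not given in the sources used here) was at 4.67, 4.77, 3.495 and 4.67 CPM in Sham kidneys, 5.26, 5.81, 2.60 and 10.53 in NX and 18.2, 10.9, 12.3 and 16.5 in AVF+NX. The AVF+NX kidneys were above every other kidney, and the rise over Sham was 1.72 ± 0.33 (SE, adjusted p = 0.00264). In hearts Psmb8 was at 5.38, 3.73 and 2.749 CPM in Sham, 2.81, 1.99, 1.43 and 4.23 in NX and 2.29, 1.28, 1.36 and 3.03 in AVF+NX, and it fell with a log2 change of −1.07 ± 0.39 (SE, adjusted p = 0.0479). The heart groups overlapped, through Sham library 3 and AVF+NX library 4, and this call was among the least secure: it was lost without each of 6 of the 7 libraries, and with counts thinned to the smallest library it was −0.86 with an adjusted p of 0.110 in edgeR's test.

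Psmb10 gave the firmer decrease in heart. It stood at 12.6, 11.2 and 13.1 CPM in Sham hearts, 8.54, 9.76, 7.08 and 10.97 in NX and 8.71, 8.09, 6.44 and 9.54 in AVF+NX, so every AVF+NX and every NX heart was below every Sham heart. The change in AVF+NX hearts was −0.60 ± 0.17 (SE, adjusted p = 0.0156), lost without either of 2 Sham libraries, and in kidney Psmb10 rose by 1.36 ± 0.21 (SE, adjusted p = 0.000647), from 10.46, 12.4, 9.09 and 7.82 in Sham to 30.5, 22.7, 21.5 and 27.6 in AVF+NX. Psmb9 was at 10.9, 11.2, 8.82 and 12.0 CPM in Sham kidneys and 37.4, 23.6, 30.5 and 26.3 in AVF+NX kidneys, a rise of 1.46 ± 0.21 (SE, adjusted p = 0.000466), and measured −0.46 ± 0.25 (SE, adjusted p = 0.172) in heart. Tap1 rose in kidney by 1.20 ± 0.22 (SE, adjusted p = 0.00190), from 21.2, 19.2, 15.6 and 21.8 to 55.2, 36.4, 47.6 and 39.7 CPM. In heart Tap1 was at 14.7, 12.9 and 15.9 in Sham and 13.6, 8.23, 7.29 and 7.22 in AVF+NX, with library 1 inside the Sham range and the other libraries below it, for a change of −0.67 ± 0.28 (SE, adjusted p = 0.0776). Tap2 measured 0.12 ± 0.29 (SE, adjusted p = 0.803) in kidney, and at no more than 0.866 CPM it was not tested in heart. In the files' coordinates Psmb9, Tap1, Psmb8 and Tap2 follow one another on chromosome 20, with gaps of 189, 943 and 1774 bases, so these genes share a locus while Psmb10 lies on chromosome 19.

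**Figure D4:**
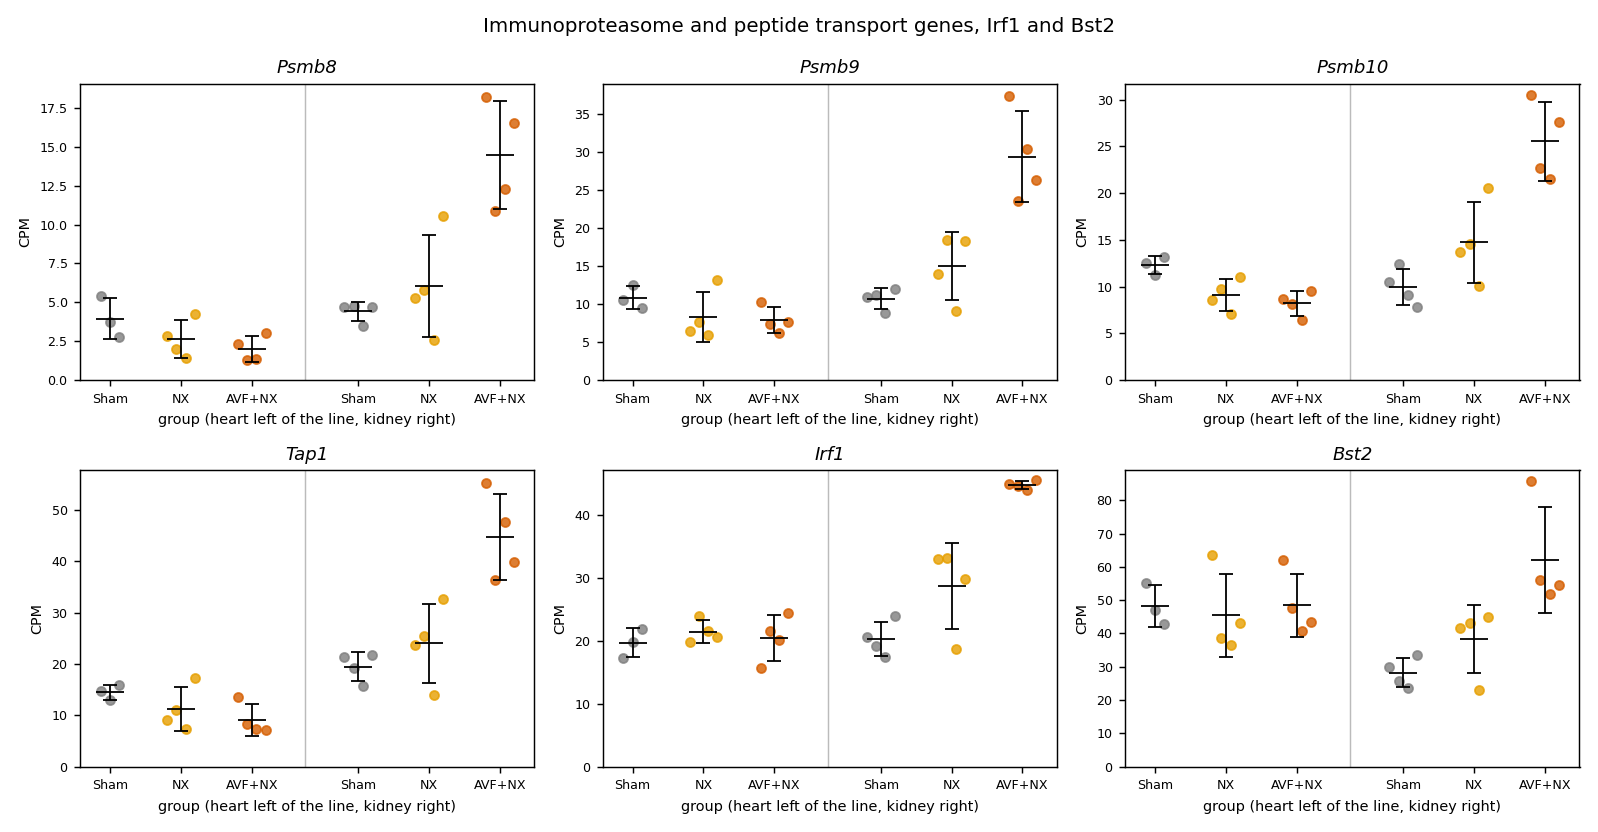
CPM of 6 genes in each library, by group, with heart left of the line and kidney right; points are libraries and black bars the mean and SD. For Psmb8, Psmb9, Psmb10 and Tap1 the AVF+NX kidneys lie above the Sham kidneys while most AVF+NX hearts lie below the Sham hearts, and Irf1 and Bst2 overlap between the heart groups.

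The 3 remaining genes rose in kidney, and none of them passed the test in heart. Lgals3bp, a secreted galectin-binding glycoprotein, was at 56.3, 39.4, 48.7 and 51.7 CPM in Sham kidneys, 77.8, 88.6, 50.5 and 78.6 in NX and 226, 128, 90.9 and 140.5 in AVF+NX, a rise of 1.58 ± 0.25 (SE, adjusted p = 0.000917) without overlap of Sham and AVF+NX. In heart it measured 0.18 ± 0.19 (SE, adjusted p = 0.478). Ifi27, a small mitochondrial protein, was at 20.4, 12.5, 15.3 and 19.7 CPM in Sham kidneys, 24.9, 51.5, 30.4 and 54.6 in NX and 72.9, 38.2, 49.3 and 63.2 in AVF+NX. Every NX and AVF+NX kidney was above every Sham kidney, and the rise after AVF+NX was 1.73 ± 0.28 (SE, adjusted p = 0.00111), against 0.17 ± 0.20 (SE, adjusted p = 0.533) in heart. Ifi44 rose in kidney by 1.20 ± 0.24 (SE, adjusted p = 0.00325) and measured 0.68 ± 0.27 (SE, adjusted p = 0.0669) in heart.

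Whether the effect of AVF+NX differed between the organs was tested on the difference itself, heart change minus kidney change, in 1 edgeR fit of all 23 libraries. That fit took hearts and kidneys as independent, and the labels do not say whether they share animals. None of the 44 members had a larger change in heart by this test (13.3% of all genes did) and 8 had a smaller one (14.6% of all genes), so the share of members called lower was close to that of all genes. The 8 were Psmb8 at −2.70 ± 0.52 (SE, adjusted p = 0.000988), Psmb10 at −1.87 ± 0.27 (SE, adjusted p = 0.000136), Psmb9 at −1.83 ± 0.34 (SE, adjusted p = 0.000764), Tap1 at −1.78 ± 0.36 (SE, adjusted p = 0.00155), Ifi27 at −1.47 ± 0.36 (SE, adjusted p = 0.00496), Lgals3bp at −1.31 ± 0.33 (SE, adjusted p = 0.00614), Bst2 at −1.045 ± 0.29 (SE, adjusted p = 0.0119) and Irf1 at −1.001 ± 0.22 (SE, adjusted p = 0.00244). Of the immunoproteasome and transport group 4 of 5 were called, of the antiviral effectors 1 of 13, of the transcription factors 1 of 4, and of the sensors, the ISG15 system, the PARP group and the guanylate-binding proteins 0. All 8 passed without each library in turn and without the AVF+NX libraries numbered 1 of both organs.

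For the genes called in both organs the difference did not pass the test, which does not show that they changed alike. It was 0.02 ± 0.34 (SE, adjusted p = 0.997) for Sp100, 0.06 ± 0.31 (SE, adjusted p = 0.933) for Parp9, −0.11 ± 0.20 (SE, adjusted p = 0.730) for Stat2, 0.05 ± 0.61 (SE, adjusted p = 0.982) for Oasl and −0.08 ± 0.72 (SE, adjusted p = 0.966) for Irf7, whose standard error is wide. The 5 genes called in heart alone also missed it, at 0.92 ± 0.46 (SE, adjusted p = 0.140) for Herc6, 0.57 ± 0.28 (SE, adjusted p = 0.131) for Ddx58, 0.79 for Xaf1, 0.40 for Cmpk2 and 0.36 for Mx2. Ifih1 measured 0.50 ± 0.28 (SE, adjusted p = 0.186), Oasl2 0.72 ± 0.47 (SE, adjusted p = 0.262) and Isg15 −0.70 ± 0.45 (SE, adjusted p = 0.257).

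The immune markers differed between the organs in the same test: 8 of 10 macrophage, 6 of 8 T and NK cell and 4 of 5 B and plasma cell genes had a smaller change in heart. Their part in the 8 calls was not tested. With the log2 total as a covariate with its own slope in each organ, 5 of the 8 passed (Psmb8, Psmb9, Psmb10, Tap1 and Irf1), with the small RNA index 2 (Psmb10 and Irf1), and with the clock index 5 (Psmb8, Psmb9, Psmb10, Tap1 and Bst2), and all 8 stayed negative in each.

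**Figure D5:**
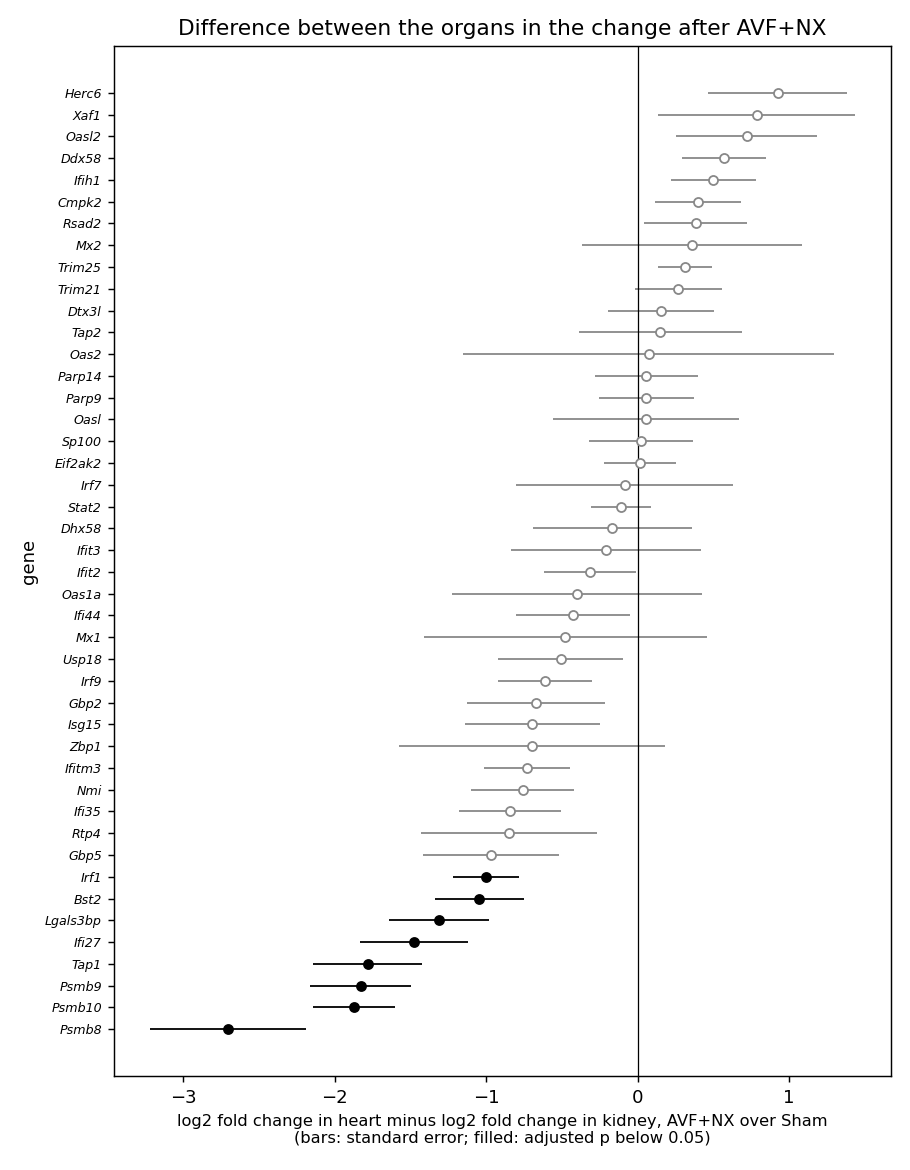
Heart change minus kidney change, AVF+NX against Sham, for each gene in log2 units with standard errors, filled where the adjusted p was below 0.05. The 8 filled points run from −2.70 for Psmb8 to −1.001 for Irf1.

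After nephrectomy alone few of these genes passed the test. In heart, NX against Sham gave 0 of 42 members higher or lower, where 0% of all genes were called in either direction. DESeq2 called 1 member, and 4 members and 2662 genes had an unadjusted edgeR p below 0.05. The median member stood at 0.22 and the median gene at −0.01. Rsad2 had the smallest p, at 0.81 ± 0.25 (SE, adjusted p = 0.154), with each NX heart (11.04, 15.9, 15.98 and 15.1 CPM) above each Sham heart (8.47, 8.80 and 7.63 CPM). Ifih1 measured 0.51 ± 0.19 (SE, adjusted p = 0.192), Oasl2 0.86 ± 0.33 (SE, adjusted p = 0.196) and Psmb10 −0.44 ± 0.17 (SE, adjusted p = 0.194). Irf7 at 0.58 ± 0.42, Stat2 at 0.22 ± 0.15, Isg15 at −0.06 ± 0.32, Psmb8 at −0.65 ± 0.40 and Tap1 at −0.39 ± 0.28 did not pass.

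In kidney, NX against Sham gave 1 of 44 members higher (0.859% of all genes) and 0 lower (0.447%), with a median of 0.37 against 0.02 over all genes. The 1 was Ifi27, at 1.26 ± 0.28 (SE, adjusted p = 0.0499), and this call was lost without any of 7 of the 8 libraries. Irf1 at 0.50 ± 0.16 (SE, adjusted p = 0.125), Rsad2 at 0.73 ± 0.21 (SE, adjusted p = 0.106) and Psmb10 at 0.58 ± 0.21 (SE, adjusted p = 0.177) followed without passing. Stat2 measured 0.34 ± 0.13, Ifih1 0.25 ± 0.17, Irf7 0.76 ± 0.53, Oasl2 0.10 ± 0.30, Isg15 0.10 ± 0.31, Psmb8 0.50 ± 0.33 and Tap1 0.32 ± 0.22. NX library 3, where the median member was below the Sham mean, had Usp18 at 0.791 CPM while the other NX kidneys had 3.44 to 3.81, and without that library 3 members were called. Of the immune markers 1 of 10 macrophage, 1 of 8 T and NK cell and 2 of 5 B and plasma cell genes rose in NX kidneys. The difference between heart and kidney in the NX effect gave 0 members in either direction (0.0788% of all genes in each). DESeq2 called 1 there, and 4 members and 2523 genes had an unadjusted p below 0.05.

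Adding the fistula to the nephrectomy was compared directly as AVF+NX against NX. In kidney 11 of 44 members rose (4.87% of all genes) and 0 fell (1.2% of all genes), with a median of 0.68 against −0.01 over all genes. The immunoproteasome group held 4 of the 11: Psmb9 at 0.97 ± 0.21 (SE, adjusted p = 0.0190), Tap1 at 0.89 ± 0.21 (SE, adjusted p = 0.0314), Psmb10 at 0.78 ± 0.20 (SE, adjusted p = 0.0415) and Psmb8 at 1.22 ± 0.32 (SE, adjusted p = 0.0418). The others were Irf1 at 0.64 ± 0.15 (SE, adjusted p = 0.0296), Zbp1 at 1.84 ± 0.44 (SE, adjusted p = 0.0301), Gbp5 at 1.39 ± 0.33 (SE, adjusted p = 0.0317), Lgals3bp at 0.99 ± 0.24 (SE, adjusted p = 0.0366), Oas2 at 2.42 ± 0.63 (SE, adjusted p = 0.0430), Sp100 at 0.95 ± 0.26 (SE, adjusted p = 0.0468) and Isg15 at 1.09 ± 0.30 (SE, adjusted p = 0.0494). For Irf1 the AVF+NX kidneys (44.8, 44.5, 44.0 and 45.5 CPM) were all above the NX kidneys (33.0, 33.1, 18.6 and 29.8 CPM). These calls sat near the threshold: 0 passed without AVF+NX library 1, 0 of the 11 passed without each library in turn, and 21 members were called without AVF+NX library 3. With the small RNA index as covariate 0 members passed, and in a fit of only the AVF+NX and NX kidneys 1 did. Ifih1 at 0.37 ± 0.17, Irf7 at 0.85 ± 0.51, Stat2 at 0.30 ± 0.13 and Oasl2 at 0.84 ± 0.29 did not pass. Macrophage (7 of 10), T and NK cell (5 of 8) and B and plasma cell (5 of 5) genes rose in the same comparison, and their part was not tested.

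In heart, AVF+NX against NX gave 1 of 42 members higher (0.172% of all genes) and 0 lower (0.164%), with a median of 0.46 against 0.00 over all genes. The 1 was Sp100, at 0.86 ± 0.15 (SE, adjusted p = 0.0378), with no overlap between the groups, and the call was lost without any of 6 of the 8 libraries. Ifih1 measured 0.53 ± 0.17, Irf7 0.86 ± 0.36, Stat2 0.22 ± 0.13, Oasl2 0.71 ± 0.27, Isg15 0.47 ± 0.27, Psmb8 −0.42 ± 0.37 and Tap1 −0.28 ± 0.26. No marker gene of any list passed in this comparison. The difference between the organs gave 0 members higher (0.25% of all genes) or lower (0.867%), while DESeq2 called 4, and 6 members and 2654 genes had an unadjusted edgeR p below 0.05.

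The rest of the interferon pathway was read from a list of 44 further symbols (receptors, ligands, kinases, inducers, negative regulators and class I genes), of which 35 matched a gene by symbol. Ifnb1, Ifng, Ifna1, Ifna4, Ifnk, Ifne, Sting1, Mb21d1 and Ticam1 did not match, so the type I and type II interferons themselves were not analysed here. Sting1 and Mb21d1 are other symbols of Tmem173 and Cgas, which are on the list and did match. After AVF+NX 24 of 35 rose and 0 fell in kidney, where 15.9% and 9.18% of all genes did. In heart 11 rose and 2 fell of 34 tested, where 15.4% and 18.6% of all genes did. Irf8, a factor of macrophages and dendritic cells and a gene of the plasmacytoid dendritic cell list, rose in kidney by 2.40 ± 0.26 (SE, adjusted p = 8.65e-05) and measured −0.22 ± 0.23 (SE, adjusted p = 0.460) in heart. B2m, the light chain of class I molecules, rose in both, by 1.09 ± 0.13 (SE, adjusted p = 0.000158) in kidney and 0.75 ± 0.15 (SE, adjusted p = 0.00385) in heart. Ptpn6, a phosphatase of blood cells, rose in kidney by 0.88 ± 0.11 (SE, adjusted p = 0.000179), and Irf5 by 1.09 ± 0.18 (SE, adjusted p = 0.000902). In heart the endosomal RNA sensors Tlr7 and Tlr3 rose by 1.24 ± 0.24 (SE, adjusted p = 0.00318) and 0.76 ± 0.15 (SE, adjusted p = 0.00365), while Tapbp, which tethers class I molecules to the peptide transporter, fell with a change of −0.90 ± 0.16 (SE, adjusted p = 0.00278). The other gene that fell in heart was Socs1, a feedback inhibitor of JAK kinases, at −1.81 ± 0.47 (SE, adjusted p = 0.0111), named after its value was seen.

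Between the organs, 10 of the 35 pathway genes had a smaller AVF+NX change in heart and 3 a larger one, against 14.6% and 13.3% of all genes. Irf8 at −2.54 ± 0.35 (SE, adjusted p = 0.000108), Tapbp at −1.20 ± 0.19 (SE, adjusted p = 0.000235), Psme2 at −0.60 ± 0.13 (SE, adjusted p = 0.00185) and Ifnlr1 at −1.58 ± 0.38 (SE, adjusted p = 0.00477) had the smallest p. Tapbp and Psme2, an activator subunit of the proteasome, belong like Psmb8 and Tap1 to class I peptide supply. The class I genes of the list did not all move the same way in heart. Mean CPM in Sham and AVF+NX hearts was 5.375 and 7.273 for Nlrc5, 39.87 and 48.94 for Erap1, and 445 and 746.5 for B2m. Those means were 59.06 and 48.78 for Psme1 and 32.55 and 28.91 for Psme2, and Tapbp fell. By edgeR's test 0 of the list passed in NX against Sham in heart, NX against Sham in kidney or AVF+NX against NX in heart. At most 0.859% of all genes passed there in either direction. In that order, 5 of 34 tested, 14 of 35 and 9 of 34 had an unadjusted edgeR p below 0.05. Of all genes 2662 of 12794, 2488 of 14322 and 2752 of 12794 did. In kidney 8 of 35 rose in AVF+NX over NX (4.87% of all genes), led by Irf8 at 1.59 ± 0.25 (SE, adjusted p = 0.00620), B2m at 0.78 ± 0.13 (SE, adjusted p = 0.00828), Ptpn6 at 0.62 ± 0.11 (SE, adjusted p = 0.00904) and Irf5 at 0.81 ± 0.17 (SE, adjusted p = 0.0190).

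The authors' deposited table of each comparison lists its own fold changes and adjusted p-values, whose test is not given in the sources used here. At an adjusted p below 0.05 the authors' deposited table called 26 members higher and 3 lower (Psmb8, Psmb10 and Tap1) in AVF+NX over Sham heart, where it called 5360 of all 13283 genes it lists. In AVF+NX over Sham kidney the authors' deposited table called 36 higher and 0 lower, among 4403 of 14175 genes. For NX over Sham the authors' deposited table called 1 higher in heart (Rsad2, among 91 of 12533 genes) and 3 in kidney (Lgals3bp, Ifi27 and Stat2, among 819 of 13991). In that heart table many of the 42 members listed have no adjusted p and could not be called, among them Oas1a, Oas2, Oasl, Oasl2, Mx1, Isg15, Sp100 and Psmb8. For AVF+NX over NX the authors' deposited table called 2 higher in heart (Cmpk2 and Sp100, among 451 of 13266 genes) and 12 in kidney (among 1123 of 14290).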

How the data were processed

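Polyadenylated RNA of 23 rat libraries was sequenced as paired ends with a strand-specific kit, per the labels' protocols. The authors deposited whole-number read counts per gene, and the submitters' processing notes name Trimmomatic 0.36, STAR 2.5.2b, featureCounts and Subread 1.5.2. For genome build, annotation release, strand setting and multi-mapping reads the sources used here give nothing. The authors' deposited tables of the 6 comparisons also give log2 fold changes, p-values and a normalized signal, which is each count over 1 factor per library. Gene symbols came from these tables, which name 15123 of the 32552 genes.

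Counts were tested with edgeR 4.0.16 (R 4.3.3): TMM scaling, its default low-count filter, and robust quasi-likelihood fits of the 3 groups of an organ together. All 23 libraries were fitted together for differences between organs. P-values were Benjamini-Hochberg adjusted over all genes tested, at 0.05. They were also tested on simulated data (200 genes changed by 2-fold), whose outcome is not given here and is not used as support. CPM are TMM-scaled within an organ and RPKM use the files' exon lengths. Standard errors are the log2 change over the root of the F statistic. Alternatives were other size factors, no filter, DESeq2 1.42.0, voom (limma 3.58.1), thinned counts, covariates, replicate blocks and leaving out each library. Replicates are separate samples per the labels, and p-values measure the spread between them. The fit of all 23 libraries took hearts and kidneys as independent, although the labels do not say whether some came from 1 animal.

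Named in every comparison were Ifih1, Irf7, Stat2, Isg15, Oasl2, Psmb8 and Tap1, with up to 3 genes of each role by smallest p, and up to 4 called pathway genes by smallest p. A further gene of this rule is not reported here. The genes, lists and tests were chosen with earlier results of these data known.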

Additional observations from a re-analysis of the deposited data

Results flagged for a closer look

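The groups of 4 libraries were examined for a library that stands apart from the rest, over 40 pairs of a measure and a group, and 6 values in 4 libraries did. Chance gives about 1 in 20 for independent pairs, and these share libraries. In AVF+NX hearts, library 1 stood apart for Oasl2, at 17.7 CPM against 9.27 to 9.99 in the others, and for Tap1, at 13.6 CPM against 7.22 to 8.24. In AVF+NX kidneys, library 1 stood apart for Irf7, at 68.8 CPM against 16.2 to 21.1, and for Stat2, at 76.7 CPM against 49.7 to 52.3. These 4 are all in the libraries numbered 1, and the labels do not say whether they come from 1 rat. Sham kidney library 3 was low for Psmb8, at 3.495 CPM against 4.67 to 4.77. NX kidney library 3 was low for the median of all members, at −0.23 log2 units from the Sham mean against 0.46 to 0.60 in the other NX kidneys.

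The effect of AVF+NX over Sham differed between heart and kidney for 8 of 44 genes by edgeR's test of the difference. All 8 had a smaller change in heart, where 14.6% of all genes did, so the share was close to that of all genes. Heart change minus kidney change was −2.70 for Psmb8, −1.87 for Psmb10, −1.83 for Psmb9, −1.78 for Tap1, −1.47 for Ifi27, −1.31 for Lgals3bp, −1.045 for Bst2 and −1.001 for Irf1. For Psmb8, Psmb9, Psmb10 and Tap1 the organs' values had opposite signs, and for the other 4 the heart value was near 0 and the kidney value positive. Of the negative heart values, those of Psmb9 and Tap1 did not pass the test in heart. The heart call of Psmb8 was lost without each of 6 of the 7 libraries.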

How the results depend on the processing

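Counts of members called were recomputed under each alternative, and the counts over all genes are not given beside them here. In AVF+NX over Sham hearts (23 calls), 0 passed with the log2 total, the small RNA index or the clock index as covariate, and leaving out single libraries gave 12 to 25. In AVF+NX over Sham kidneys (36 calls), 7 passed with the clock index (Ifi27, Irf1, Lgals3bp, Psmb8, Psmb9, Psmb10 and Tap1), and single omissions gave 26 to 38. In NX over Sham hearts (0), DESeq2 gave 1. In NX over Sham kidneys (1), 0 passed with RLE size factors, no filter, voom, thinned counts, any of the 3 covariates or only the 2 groups compared, DESeq2 gave 2, and single omissions gave 0 to 3. In AVF+NX over NX hearts (1), DESeq2 gave 5, the log2 total 0, only the 2 groups compared 0, and single omissions 0 to 5. In AVF+NX over NX kidneys (11), DESeq2 gave 21, no filter 7, voom 7, the small RNA index 0, only the 2 groups compared 1, and single omissions 0 to 21. For the difference between organs in AVF+NX over Sham (8), alternatives chosen after seeing the data gave 5 with the log2 total, 2 with the small RNA index and 5 with the clock index, while single omissions gave 8 to 9. The difference in NX over Sham (0) had 1 call by DESeq2, and that in AVF+NX over NX (0) had 4 by DESeq2 and 0 to 3 under single omissions. Sham heart against sham kidney (19) had 16 to 20. The cause of these shifts was not tested.

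The labels do not say that a replicate number marks a shared animal or day, and not every same-numbered pair correlated above 0.1, so the numbers were not taken to pair libraries. The median correlation of same-numbered libraries was −0.01 in heart (1 of 10 pairs above 0.1) and 0.17 in kidney (7 of 12), while differently numbered libraries had 0.01 in heart (1 of 30) and −0.01 in kidney (6 of 36), so kidney numbers may be shared. With a replicate block the calls were 0 in NX over Sham hearts, 20 and 37 in AVF+NX over Sham hearts and kidneys, 2 in NX over Sham kidneys, 1 and 22 in AVF+NX over NX hearts and kidneys, 10, 0 and 2 for the organ differences in AVF+NX over Sham, NX over Sham and AVF+NX over NX, and 20 between sham organs.

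A change of sign was not counted where neither value passed the test and the main value was smaller in size than its standard error. Apart from such changes, 4391 values of single genes kept direction and side of the threshold, 252 lost the threshold, 81 gained it and 8 changed sign. With the clock index these were Herc6 at −0.29 and Ifi44 at −0.038 in NX over Sham hearts, Isg15 at −0.22 in AVF+NX over Sham hearts, and Irf7 at −0.31 and Parp9 at −0.0294 in NX over Sham kidneys. With the log2 total they were Psmb10 at 0.0030 and Psmb8 at 0.29 in AVF+NX over NX hearts. Dhx58 in that comparison ran from −0.014 (without AVF+NX library 1) to 0.65 under single omissions. Low counts limit Zbp1 and Tap2 in heart and Oas2 in both organs.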
